A study of Rattus norvegicus with 24 samples.

Results

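In all, 6 genes that mark dividing cells were followed across all 24 plantaris libraries of the series: Mki67, Top2a, Cdk1, Ccnb1, Pcna and Ccnd1. They are 6 of the 31998 rows of the deposited table and 6 of the 16661 rows with enough counts to be tested. The members were chosen by Ensembl gene ID: ENSRNOG00000028137 for Mki67, ENSRNOG00000053047 for Top2a, ENSRNOG00000000632 for Cdk1, ENSRNOG00000058539 for Ccnb1, ENSRNOG00000021264 for Pcna and ENSRNOG00000020918 for Ccnd1. The deposited table pairs no ID with a name, and the symbols come from the list that defined the set. The reference table used here matched 0 of the IDs, so the symbols were not checked against an annotation.

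The muscle is the plantaris of the calf, taken from female rats aged 14 months and in generation 19 of their lines. HRT and LRT are rat lines selected for a high and a low response of running capacity to endurance training. In the HRT overload and LRT overload groups the gastrocnemius and soleus had been removed from 1 leg, which leaves the plantaris to carry their load, and the muscle was collected 14 days later. HRT control and LRT control are the control muscles of the same lines, and each of the 4 groups had 6 libraries. It is not labelled if a control muscle is the unoperated leg of an overloaded rat or belongs to another rat, so p-values measure the spread between these libraries.

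Dividing cells make the products of these genes in turn. Ccnd1 encodes cyclin D1, which activates kinases in response to growth signals before DNA is copied, and Pcna encodes the sliding clamp that holds DNA polymerase on its template and also serves DNA repair. Top2a encodes the topoisomerase that untangles replicated chromosomes, Cdk1 the kinase that drives entry into mitosis, Ccnb1 its partner cyclin B1, and Mki67 the Ki-67 protein that coats mitotic chromosomes. Fibre nuclei of adult muscle do not divide, and the dividing cells of a loaded muscle are satellite cells, the muscle stem cells, together with fibroblasts, endothelium and immune cells. In whole muscle, more dividing cells and more RNA in each cannot be told apart, and the marker lists of these cell types could not be matched to the table's IDs.

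Genes used late in the cell cycle are known for CCAAT boxes, which the factor NF-Y binds. They are also known for the cell cycle genes homology region (CHR), which the DREAM and MuvB complexes bind. The CHR was searched here only as the word TTTGAA or TTCGAA. RefSeq promoters of the GRCr8 assembly, matched by symbol, were found for 5 of the 6 genes and not for Ccnd1. The 250 bases before the start site used in that table were searched on both strands. Stretches outside the RefSeq gene are printed for 4 genes, and a short one inside it for Mki67, 5′ to 3′ on the gene's strand. Any relation between the words in them and the changes with overload was not tested. Capitals mark CCAAT (or ATTGG, its other strand) and the CHR words (or TTCAAA). The stretches are chr10:84473094-84473343 on the minus strand for Top2a, chr20:19265043-19265251 on the plus strand for Cdk1 (its last 41 bases, which hold 1 of its CHR words, lie inside the gene and are left out), chr2:33655226-33655475 on the minus strand for Ccnb1 and chr3:139955821-139956070 on the minus strand for Pcna. For Mki67 the window lies inside the span of the RefSeq gene, whose outermost start is further upstream, and only the stretch with its CHR words is shown (chr1:199952683-199952710, minus strand).
Mki67: TTTGAAccgccgttttcgTTTGAATTGG
Top2a: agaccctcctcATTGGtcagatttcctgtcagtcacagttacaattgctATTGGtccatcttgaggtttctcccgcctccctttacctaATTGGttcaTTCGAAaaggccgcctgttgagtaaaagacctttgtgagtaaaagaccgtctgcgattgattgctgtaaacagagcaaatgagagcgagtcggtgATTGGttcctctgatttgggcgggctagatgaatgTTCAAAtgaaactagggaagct
Cdk1: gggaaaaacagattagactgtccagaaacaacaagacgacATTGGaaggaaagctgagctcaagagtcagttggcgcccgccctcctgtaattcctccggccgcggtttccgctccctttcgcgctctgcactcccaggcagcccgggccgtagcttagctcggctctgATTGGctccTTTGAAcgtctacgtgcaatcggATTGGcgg
Ccnb1: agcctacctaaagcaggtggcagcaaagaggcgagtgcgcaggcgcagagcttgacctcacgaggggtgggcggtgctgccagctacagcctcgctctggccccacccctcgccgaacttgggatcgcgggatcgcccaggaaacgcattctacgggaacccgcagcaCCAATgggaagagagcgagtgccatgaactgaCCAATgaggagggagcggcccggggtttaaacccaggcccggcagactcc
Pcna: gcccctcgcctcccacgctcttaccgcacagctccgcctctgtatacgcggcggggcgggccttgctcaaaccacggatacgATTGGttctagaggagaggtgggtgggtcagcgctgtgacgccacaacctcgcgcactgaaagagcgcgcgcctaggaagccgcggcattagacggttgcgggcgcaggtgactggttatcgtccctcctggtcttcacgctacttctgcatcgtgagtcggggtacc

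Mki67, Top2a and Cdk1 each had 2 CHR words in the window, and Ccnb1 and Pcna had 0. Only TTTGAA and TTCGAA were searched, so a 0 does not show that the element is absent. In Mki67 the second CHR word shares its last base with a CCAAT box on the other strand. CCAAT boxes numbered 4 in Mki67, 4 in Top2a, 3 in Cdk1, 2 in Ccnb1 and 1 in Pcna. Of all 33469 promoters in the table, 34% had a CCAAT box and 9.42% had at least 2, and 17.4% had a CHR word and 2.3% at least 2. Both kinds of word occurred together in 6.31% of promoters. The GC box GGGCGG was present in each of the 5 windows, against 30.5% of all promoters. The word TTGGCGC and its relatives TTCCCGC, then TTCGCGC, and lastly TTGCCGC, which resemble sites of E2F factors and can overlap the other words, occurred once in Mki67, in 2 places in Cdk1 and nowhere in the other 3 windows, against 7.59% of all promoters. A match is a description of the letters in these windows.

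**Figure D1:**
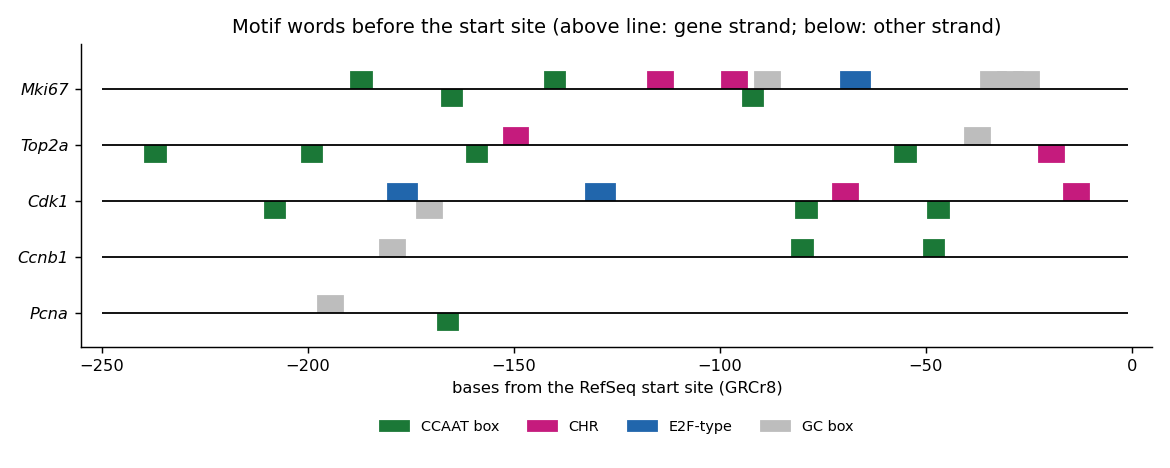
Position of 4 kinds of motif word in the 250 bases before the RefSeq start site of 5 genes (x axis, bases from the start; boxes above a line are on the gene's strand and boxes below it on the other strand). Mki67, Top2a and Cdk1 carry CHR words (pink, TTTGAA or TTCGAA) beside CCAAT boxes (green). Ccnb1 carries CCAAT boxes without either of these CHR words, and Pcna carries 1 CCAAT box. Overlapping GC boxes of Mki67 merge into 1 block.

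Library totals ranged from 26997674 to 34254957 estimated counts. Values are given in CPM, the usual counts-per-library-size unit, after TMM scaling (trimmed mean of M values). They compare 1 gene between libraries, not genes with each other, since no gene lengths of the authors' build were used. Scaling factors were 0.844 to 0.955 in control and 0.977 to 1.28 in overloaded libraries. The RNA integrity number (RIN) also moved with overload, from 8 to 8.6 in control to 8.2 to 9.4 in overloaded libraries.

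The first comparison asked what 14 days of overload changed in HRT muscle. Mki67, Top2a, Cdk1, Ccnb1 and Ccnd1 rose, and Pcna did not pass the test. The 5 calls, each upward and over 2-fold, stand against 31.9% of all tested genes called higher and 15.3% called higher by more than 2-fold (edgeR adjusted p under the threshold of 0.05). The median log2 fold change was 2.07 over the 6 genes and −0.02 over all tested genes.

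Mki67 lay between 4.74 and 10.3 CPM in HRT control (median 6.67) and between 18.6 and 34.2 CPM in HRT overload (median 24.6). Each overloaded library was above each control library. This was a 3.57-fold rise, or 1.84 ± 0.192 as a log2 fold change (SE; edgeR adjusted p = 2.94e-08). Top2a, the topoisomerase, ran from 0.432 to 3.57 CPM in HRT control (median 0.915) and from 10.1 to 18.4 CPM after overload (median 13.2). Here too the groups did not overlap, and the rise was 9.82-fold (log2 fold change 3.30 ± 0.386, edgeR adjusted p = 1.99e-07).

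The mitotic kinase and its cyclin started from few reads. Cdk1 reached 10 counts in 3 of 12 control libraries and passed the count filter through the overloaded groups, where it was high. In both lines its call, and so the count of 5 genes called, is not independent of that filter. Cdk1 ran from 0.0784 to 0.827 CPM in HRT control (median 0.163), on 2.05 to 22.5 estimated counts, and from 1.87 to 4.27 CPM after overload (median 2.69). It rose 10.3-fold (log2 fold change 3.36 ± 0.417, edgeR adjusted p = 3.05e-07), which is within the error of the rise of Top2a. HRT control replicate 1 was the highest control library for Cdk1, and without it the rise was 4.08 on the log2 scale (edgeR adjusted p = 1.81e-08). Ccnb1, cyclin B1, lay between 0.133 and 0.864 CPM in HRT control (median 0.446, at most 23.0 counts) and between 1.79 and 2.70 CPM after overload (median 2.20). It rose 4.94-fold without overlap (log2 fold change 2.31 ± 0.336, edgeR adjusted p = 2.66e-06).

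Cyclin D1 rose less. Ccnd1 ran from 7.98 to 14.2 CPM in HRT control (median 10.5) and from 20.1 to 28.7 CPM after overload (median 24.7), with no overlap. This was a 2.24-fold rise, or 1.16 ± 0.162 on the log2 scale (edgeR adjusted p = 1.63e-06). Pcna, the replication clamp, lay between 18.7 and 22.3 CPM in HRT control (median 21.0) and between 20.6 and 24.6 CPM after overload (median 23.0). The ranges overlapped, with 5 of 6 overloaded libraries above the highest control, and the log2 change came to 0.15 ± 0.071 (edgeR adjusted p = 0.0696; 95% interval 0.0030 to 0.30 before adjustment). The upper end of this interval is a 1.23-fold rise, below the 2.24-fold of Ccnd1. Groups that did not overlap, with overload higher, were found for 5 of the 6 genes and for 21.4% of all tested genes.

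The LRT comparison called the same 5 genes higher and left Pcna uncalled. Here 28.9% of all tested genes were called higher and 12.9% higher by more than 2-fold, and the median log2 fold change was 1.91 over the 6 genes and −0.02 over all tested genes. Mki67 went from 5.37 to 7.19 CPM in LRT control (median 6.37) to 14.1 to 32.3 CPM in LRT overload (median 23.1). The lowest overloaded library was thus above the highest control, and the rise was 3.63-fold (log2 fold change 1.86 ± 0.193, edgeR adjusted p = 5.70e-08). Top2a went from 0.628 to 1.90 CPM (median 1.70) to 6.15 to 16.5 CPM (median 11.7), again without overlap. Its rise was 7.76-fold (log2 fold change 2.96 ± 0.384, edgeR adjusted p = 1.41e-06).

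Cdk1 and Ccnb1 were again low in control muscle and higher in every overloaded library. Cdk1 lay between 0.105 and 0.407 CPM in LRT control (median 0.222, 2.68 to 11.3 counts) and between 1.28 and 4.32 CPM in LRT overload (median 2.73). The rise was 10.3-fold (log2 fold change 3.36 ± 0.422, edgeR adjusted p = 7.00e-07). Ccnb1 lay between 0.135 and 0.663 CPM in control (median 0.474, at most 19.0 counts) and between 0.921 and 2.85 CPM after overload (median 1.55), a 3.91-fold rise (log2 fold change 1.97 ± 0.341, edgeR adjusted p = 3.50e-05). Ccnd1 went from 6.85 to 10.8 CPM (median 8.91) to between 12.002 and 27.9 CPM (median 22.4). The cyclin D1 rise was 2.44-fold (log2 fold change 1.29 ± 0.164, edgeR adjusted p = 8.78e-07). Pcna was at 21.7 to 27.9 CPM in LRT control (median 22.8) and 19.5 to 24.8 CPM in LRT overload (median 23.4). Its ranges overlapped and the log2 change came to −0.03 ± 0.071 (edgeR adjusted p = 0.699; 95% interval −0.18 to 0.11). Non-overlapping groups with overload higher were seen for 5 of the 6 genes and for 17.3% of all tested genes.

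**Figure D2:**
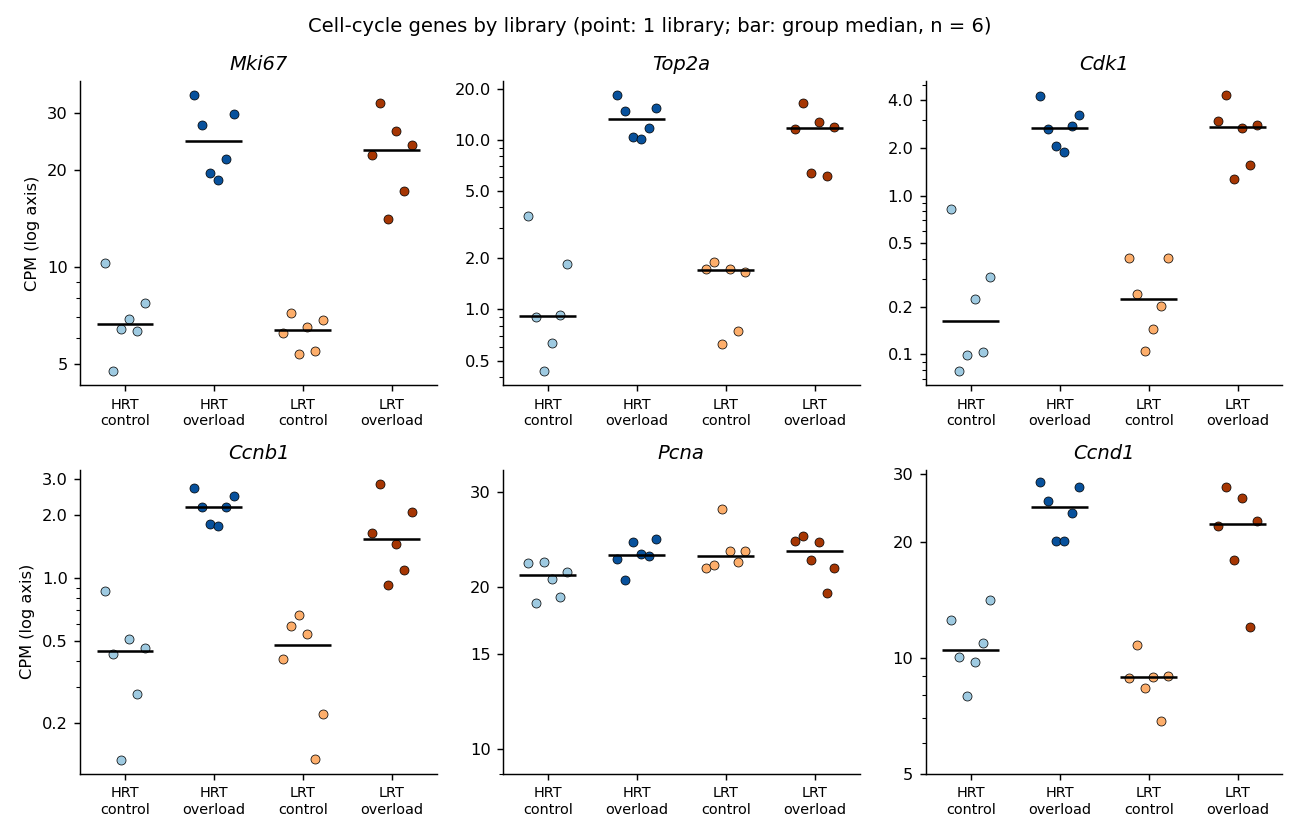
CPM of each gene on a log axis (y) in the 4 groups (x), with 1 point per library and a bar at the group median (n = 6). For Mki67, Top2a, Cdk1, Ccnb1 and Ccnd1 each overloaded library lies above each control library of its line. The 4 groups of Pcna have overlapping ranges, and all its libraries lie between 18.7 and 27.9 CPM.

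The Pcna result depended on the scaling. With libraries scaled by their totals alone, Pcna passed the test as higher in HRT (0.44 on the log2 scale, edgeR adjusted p = 4.82e-05) and in LRT (0.21, edgeR adjusted p = 0.0296), and the median of all tested genes moved by 0.27 and 0.22. Relative to that median Pcna stood at 0.17 in HRT and −0.0077 in LRT, against 0.17 and −0.013 with TMM. The same scaling gave 7942 genes higher and 2238 lower in HRT, where TMM gave 5319 and 5204, and 6765 and 1893 in LRT, where TMM gave 4808 and 4716. In HRT Pcna was also called with only the groups compared in the fit (0.17, edgeR adjusted p = 0.0357), with a stricter filter (0.18, edgeR adjusted p = 0.0231) and without HRT overload replicate 2 (0.18, edgeR adjusted p = 0.0371). A 2-sided exact permutation test gave an unadjusted p of 0.0281. With RIN as a covariate the log2 fold change of Pcna in HRT was 0.023 (edgeR adjusted p = 0.866).

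For the other 5 genes the rise held in each alternative fit that tested them. With RIN as a covariate the log2 fold changes in HRT were 1.92 for Mki67, 3.67 for Top2a, 3.48 for Cdk1, 2.61 for Ccnb1 and 1.31 for Ccnd1, with edgeR adjusted p between 7.39e-06 and 0.000125. In LRT they were 1.91, 3.18, 3.43, 2.15 and 1.37 in the same order.

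The next comparisons asked whether the lines differed. Of the 6 genes, 0 were called between lines in control muscle, 0 in overloaded muscle and 0 for the difference between overload responses, against 1.97%, 3.09% and 0.048% of all tested genes called by edgeR. At an unadjusted p under 0.05 the counts were 1, 0 and 0 of the 6, the 1 being Pcna in control muscle, where 16.6% of all tested genes passed that threshold, against 22.3% in overloaded muscle and 13.6% for the difference between responses. DESeq2 and limma-voom also called 0 of the 6 in each of these comparisons. The intervals leave room for sizeable line differences, since these are wide for the low genes.

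In overloaded muscle each of the 6 point estimates was lower in LRT, and the lines overlapped for each gene. The median log2 difference was −0.17 over the 6 genes and −0.0082 over all tested genes. The shares of all tested genes that were lower in LRT, or that overlapped, were not counted. Top2a, Cdk1, Ccnb1 and Ccnd1 ran with Mki67 across the overloaded libraries, so the 6 estimates are not independent. The estimate of Pcna changed sign with RIN as a covariate or with only the groups compared. That of Cdk1 changed sign with RIN and the replicate number together. Ccnb1 had the largest of these differences, at 1.67 ± 0.707 CPM (SD, n = 6) in LRT and 2.20 ± 0.361 CPM in HRT, and 4 of 6 LRT libraries were below the lowest HRT library while 1 was above the highest. The log2 difference was −0.39 ± 0.294 (edgeR adjusted p = 0.448; 95% interval −0.997 to 0.21). Top2a was at 10.9 ± 3.98 CPM in LRT and 13.4 ± 3.27 CPM in HRT (log2 difference −0.31, interval −0.99 to 0.37, edgeR adjusted p = 0.618). Mki67 was at 22.7 ± 6.50 and 25.2 ± 6.28 CPM (−0.15, interval −0.53 to 0.22, edgeR adjusted p = 0.660), and Ccnd1 at 21.4 ± 5.74 and 24.4 ± 3.71 CPM (−0.19, interval −0.51 to 0.14, edgeR adjusted p = 0.518). Cdk1, at 2.59 ± 1.09 and 2.80 ± 0.876 CPM (−0.11, interval −0.79 to 0.57), and Pcna, at 22.9 ± 2.05 and 23.0 ± 1.42 CPM (−0.0068, interval −0.15 to 0.14), differed least. The intervals for Pcna and Cdk1 show unlike precision: they allow LRT levels of 0.90 to 1.101 times HRT for Pcna and of 0.579 to 1.49 times for Cdk1.

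In control muscle Mki67 was at 6.27 ± 0.736 CPM in LRT and 7.07 ± 1.85 CPM in HRT, and Ccnd1 at 8.80 ± 1.27 and 10.9 ± 2.18 CPM (log2 difference −0.31, interval −0.65 to 0.03, edgeR adjusted p = 0.358). Top2a was at 1.401 ± 0.561 and 1.39 ± 1.17 CPM, Cdk1 at 0.251 ± 0.130 and 0.273 ± 0.285 CPM and Ccnb1 at 0.426 ± 0.211 and 0.446 ± 0.248 CPM, with edgeR adjusted p between 0.949 and 0.981. These values differ far less than their spread. Cdk1 reached 10 counts in 3 of 12 control libraries and passed the count filter through the overloaded groups. With only the control groups in the fit it was not tested, so its comparison between control groups says little. Pcna was higher in LRT, at 23.4 ± 2.29 against 20.7 ± 1.51 CPM (log2 difference 0.18 ± 0.071, edgeR adjusted p = 0.198), with 3 of 6 LRT libraries above the highest HRT library. For Pcna the 4 group means thus ran from LRT control through HRT overload and LRT overload down to HRT control. Of the neighbours in that order, HRT overload and LRT overload were compared and not called different.

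The difference between responses, LRT minus HRT, was near 0 for Mki67 (0.02 on the log2 scale, 95% interval −0.54 to 0.58, edgeR adjusted p = 0.982) and for Cdk1 (−0.00095, interval −1.23 to 1.22, edgeR adjusted p = 1.00). The value for Cdk1 rested on HRT control replicate 1, without which it was −0.72 (edgeR adjusted p = 0.599). It was −0.34 for Top2a (interval −1.47 to 0.79, edgeR adjusted p = 0.809), −0.34 for Ccnb1 (interval −1.33 to 0.65, edgeR adjusted p = 0.787), 0.12 for Ccnd1 (interval −0.35 to 0.60, edgeR adjusted p = 0.844) and −0.18 for Pcna (interval −0.39 to 0.02, edgeR adjusted p = 0.423). As a ratio of folds, the interval for Mki67 ran from 0.688 to 1.498 and that for Cdk1 from 0.428 to 2.34. These intervals are before adjustment over all tested genes. They do not give the smallest line difference in the response that could have been called.

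**Figure D3:**
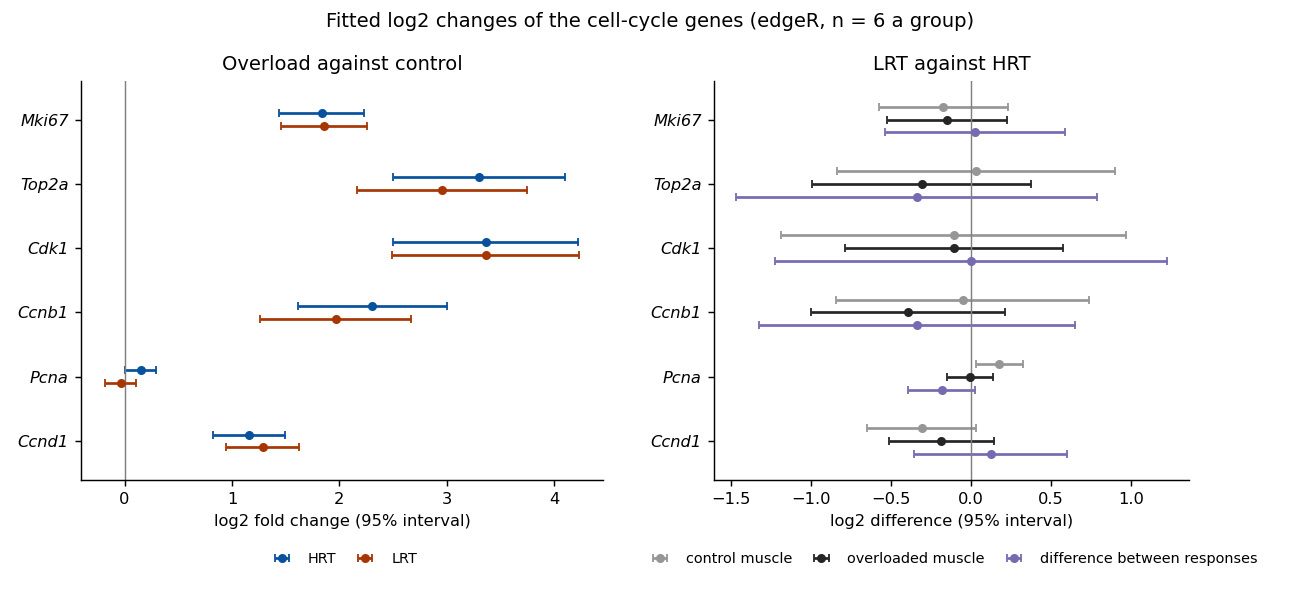
Fitted log2 fold changes (x) of the 6 genes (y) with 95% intervals, overload against control in each line on the left and LRT against HRT on the right (control muscle, overloaded muscle, and the difference between responses; n = 6 libraries a group). Left, 5 genes lie above 1 in both lines and Pcna near 0; right, the point estimates lie between −0.39 and 0.18.

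Counts set against Mki67 in the same library need no scaling between libraries, and they showed unequal changes. As a share of Mki67, Top2a stood at 6.66% to 34.7% in HRT control (median 16.7%) and at 51.2% to 54.4% in HRT overload (median 53.7%). In LRT they were 11.6% to 27.9% (median 25.4%) and 35.8% to 51.7% (median 48.9%). The ratio of topoisomerase to Ki-67 RNA was thus higher in each overloaded library, and its narrowest range was in HRT overload. Cdk1 counts rose from a median of 2.49% of Mki67 counts to 10.6% in HRT and from 3.62% to 10.8% in LRT, again without overlap. Its control shares rest on only 2.05 to 22.5 Cdk1 counts in HRT and 2.68 to 11.3 in LRT.

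Ccnb1 kept closer to Mki67, with medians of 6.66% in HRT control, 8.79% in HRT overload, 7.37% in LRT control and 6.96% in LRT overload, and with overlapping ranges in both lines. The median shares of Pcna and Ccnd1 were lower after overload, as their fold changes were smaller than that of Mki67. Pcna had a median of 301% of Mki67 in HRT control and 94.0% in HRT overload, and 353% and 100.5% in LRT. Ccnd1 counts fell from a median of 157% to 98.1% of Mki67 counts in HRT, where the ranges did not overlap. In LRT they were 140% in control and 96.6% in overload, with 1 overloaded library, at 128%, inside the control range of 125% to 156%. These ratios describe the libraries and were not tested. How many of all tested genes have a ratio to Mki67 that separates the groups was not counted.

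**Figure D4:**
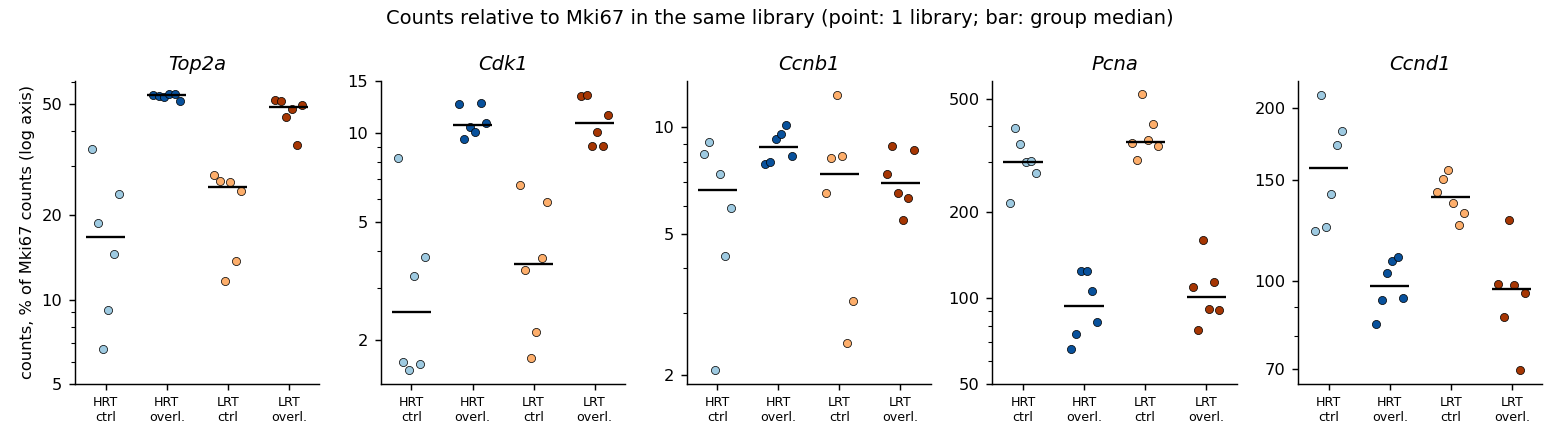
Counts of 5 genes as a percentage of Mki67 counts in the same library (y, log axis) in the 4 groups (x), with 1 point per library and a bar at the group median. Top2a and Cdk1 stand higher relative to Mki67 in overloaded libraries, Ccnb1 overlaps between states, and Pcna stands lower, at medians of 94.0% and 100.5% against 301% and 353%.

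Some overloaded libraries were high or low in most of these genes at once. In LRT overload, replicate 2 was the highest library for each of the 6 genes, and replicates 3 and 5 held the lowest place for 3 genes each. In HRT overload, replicate 1 was the highest for 5 genes and replicate 4 the lowest for 4. The scaling factors of HRT overload replicates 1, 2 and 6, the 3 libraries with the most Mki67, were 1.22, 1.28 and 1.27. Those of the other 3 were 1.01 to 1.09. In LRT overload the factor of replicate 2 was 1.18, the largest of its group. The part of scaling in the order was not tested. HRT overload replicates 1, 2 and 6 also stood apart from the others over genes at large. Their counts differed from each other by a chi-square per degree of freedom of 22.5 to 29.7. Those of replicates 3, 4 and 5 differed from each other by 28.8 to 57.1, and between the 2 sets it was 69.1 to 193. The part of this wider split in the order and in the correlations with Mki67 was not tested.

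With group means removed, log2 CPM of Top2a ran with Mki67 across the 12 overloaded libraries (Pearson's r = 0.962, permutation p = 2e-05; Spearman's rho = 0.930, permutation p = 1e-05, the smallest that 100000 resamples give). For Cdk1 r was 0.948 (permutation p = 0.00012; rho = 0.881, permutation p = 0.00088) and for Ccnb1 0.876 (permutation p = 0.00041; rho = 0.853, permutation p = 0.00133). Ccnd1 gave r = 0.820 (permutation p = 0.00246; rho = 0.895, permutation p = 0.00036). Pcna did not pass (r = 0.311, permutation p = 0.368; rho = 0.371, permutation p = 0.271), and its r was −0.228 in HRT overload and 0.619 in LRT overload. These 5 relations gave 10 p-values, and after Benjamini-Hochberg adjustment those of the first 4 genes lay between 1e-04 and 0.00307 and those of Pcna were 0.368 and 0.301. Without the 2 libraries farthest from the median of Mki67, r was 0.936 for Top2a, 0.902 for Cdk1, 0.775 for Ccnb1, 0.837 for Ccnd1 and 0.191 for Pcna. Under scaling by totals alone r for Pcna was 0.761 (permutation p adjusted over 10 = 0.00759), so the low correlation of Pcna also depended on the scaling. How many of all tested genes ran with Mki67 as closely was not counted, so these relations are not shown to be particular to the set.

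**Figure D5:**
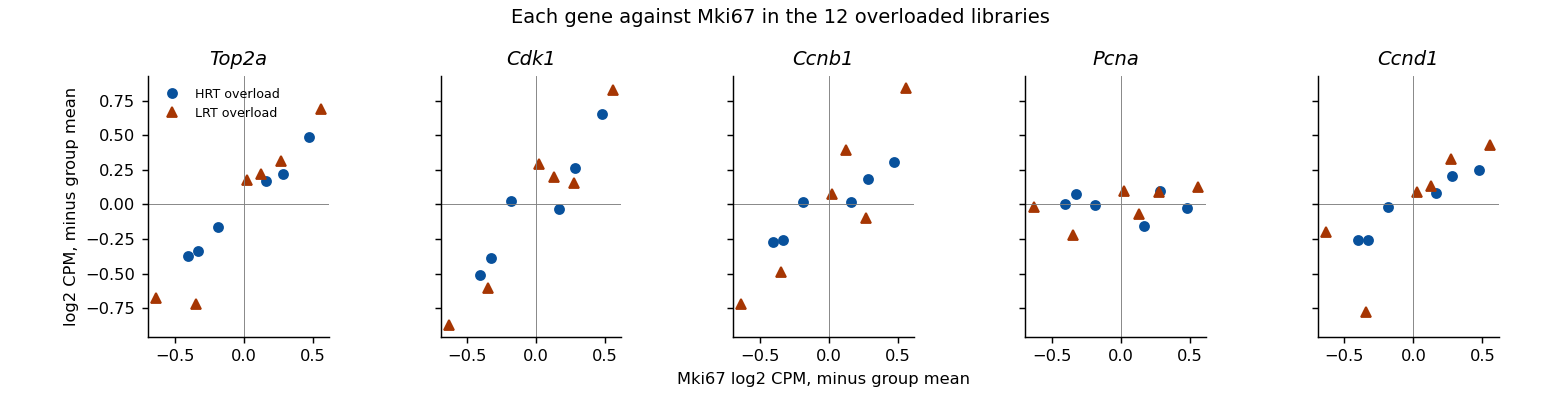
Deviation of log2 CPM from the group mean for 5 genes (y) against that of Mki67 (x) in the 12 overloaded libraries (circles HRT, triangles LRT). Top2a, Cdk1, Ccnb1 and Ccnd1 climb with Mki67 (r = 0.962, 0.948, 0.876 and 0.820), and Pcna stays near 0 across the range (r = 0.311).

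Spread between libraries in control muscle was above that of the median gene for Top2a, Cdk1, Ccnb1 and Ccnd1 in both lines, and for Mki67 in HRT only. Cdk1 and Ccnb1 had only 2.05 to 23.0 counts in control libraries, and the part of counting error in their spread was not tested. The SD of log2 CPM in HRT control was 1.04 for Top2a, 1.00 for Cdk1, 0.756 for Ccnb1, 0.364 for Mki67 and 0.289 for Ccnd1. In HRT overload it was 0.345, 0.426, 0.232, 0.357 and 0.223 in the same order. The median SD of all tested genes was 0.169 and 0.250 in these groups. For Cdk1 in HRT control, replicate 1 stood at 0.827 CPM and the other 5 libraries at 0.0784 to 0.307 CPM. Pcna varied least of the 6, with an SD of 0.091 to 0.133 in the 4 groups. In LRT control the SD was 0.670 for Top2a, 0.606 for Cdk1, 0.742 for Ccnb1, 0.170 for Mki67 and 0.210 for Ccnd1, with a median over all tested genes of 0.196. In LRT overload it was 0.573, 0.627, 0.573, 0.429 and 0.440 in the same order, with a median of 0.214.

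The 2 genes most like the set were sought among 13742 other tested genes whose mean log2 CPM was 0 or more. Likeness was Pearson's r, over 24 libraries with group means removed, with the mean standardised log2 CPM of Mki67, Top2a, Cdk1 and Ccnb1. ENSRNOG00000003388 came first (r = 0.944; 0.936 in overloaded and 0.962 in control libraries). It was at 1.26 ± 0.922 CPM (SD, n = 6) in HRT control and 10.6 ± 2.52 CPM in HRT overload, and at 1.302 ± 0.514 and 9.46 ± 3.67 CPM in LRT, and rose by 3.09 (edgeR adjusted p = 1.53e-07) and 2.86 (edgeR adjusted p = 7.51e-07) on the log2 scale. ENSRNOG00000056069 was second (r = 0.934), and rose by 2.82 in HRT (edgeR adjusted p = 2.67e-08) and 2.55 in LRT (edgeR adjusted p = 1.95e-07). Measured the same way, Ccnd1, which is not part of that mean, had r = 0.802 and Pcna r = 0.228. The table gives no names for the first 2 IDs.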

How the data were processed

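The authors deposited 1 table of estimated counts, a row per gene, not normalized. The submitters' processing notes list Salmon 0.9.1 as a tool and, as builds, Rnor_6.0 and also rn6. Annotation and options are not given in the sources, nor is the handling of reads that fit several genes, so genes with near-identical copies are uncertain. Per the labels' protocols, an Illumina TruSeq kit and total RNA were used.

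Titles gave the groups, and all 24 libraries, with totals of 26997674 to 34254957 counts, were used. Counts were rounded, filtered with filterByExpr (minimum count 10, minimum total 15) and scaled by TMM in edgeR 4.0.16 (R 4.3.3). A robust quasi-likelihood fit of all 4 groups gave 5 contrasts, with Benjamini-Hochberg adjustment over 16661 genes and a threshold of 0.05. Each standard error is the size of the log2 change divided by the root of its F statistic. For the difference between responses they combine those of both responses. Log2 CPM used a prior count of 2. Counts of replicate pairs differed by far more than sampling noise.

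Alternatives were DESeq2 1.42.0, limma-voom (limma 3.58.1), other scalings and filters, no robust estimation, counts not rounded, RIN, the replicate number as a block, the compared groups alone, exact permutation and each library left out. The members and lists were chosen with earlier results of these data known. The text names all 6 members and the 2 genes most like them. The lists of other cell-cycle genes and of cell type markers could not be tested, since the reference table (47357 genes, GRCr8) matched 0 IDs. Promoters came from RefSeq by symbol. Counting error at the lowest levels, 2 to 3 counts for Cdk1, is large. Plots used matplotlib 3.10.9 in Python 3.11.15.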

Additional observations from a re-analysis of the deposited data

Results flagged for a closer look

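Pcna in LRT control replicate 3 stood apart from its group. It was at 27.9 CPM, while the other 5 libraries lay between 21.7 and 23.4 CPM, and on the log2 scale its gap to the nearest library was 0.708 of the group's range, above Dixon's 95% critical value for 6 libraries. The 6 genes in 4 groups gave 24 such checks, and chance flags about 1 in 20. Without this library the log2 difference of Pcna between LRT and HRT control muscle was 0.12 (edgeR adjusted p = 0.432), against 0.18 with it, and the LRT overload response was 0.019 (edgeR adjusted p = 0.827), against −0.03.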

How the results depend on the processing

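Mki67, Top2a, Cdk1, Ccnb1 and Ccnd1 stayed above control in both lines, past the threshold, in each alternative that tested them (24 or 25 per gene and line). Ccnb1 was not tested under the stricter filter, which needs a mean count of 50, nor Cdk1 between lines with only the control groups in the fit. Their log2 fold changes ran in HRT from 1.67 to 2.16 (Mki67), 3.103 to 3.84 (Top2a), 3.12 to 4.08 (Cdk1), 2.11 to 2.61 (Ccnb1) and 1.08 to 1.47 (Ccnd1). In LRT they ran from 1.73 to 2.11, 2.80 to 3.21, 3.07 to 3.62, 1.74 to 2.23 and 1.19 to 1.53. Between lines the exact permutation test on unadjusted p called 1 gene in control muscle, Pcna (p = 0.0195). Some differences near 0 changed sign, and the cause was not tested. Pcna in LRT turned from −0.03 to 0.21 with totals, 0.0042 with no filter, 0.0078 with the stricter filter and 0.021 with only the groups compared (−0.061 to 0.019 with single libraries left out). Its line difference in overloaded muscle turned to 0.049 with RIN, 0.048 with the block and RIN and 0.0036 with only the groups compared (−0.037 to 0.035). For Cdk1 the difference between responses turned to 0.0077 with DESeq2 size factors, 0.012 with DESeq2, 0.021 with no filter, 0.0030 with the stricter filter, 0.019 unrounded and 0.090 with the block and RIN (−0.72 to 0.18). Its line difference turned to 0.20 with limma-voom and 0.13 in the permutation test in control muscle (−0.29 to 0.61), and to 0.011 with the block and RIN in overloaded muscle (−0.32 to 0.052). The difference between responses of Mki67 turned to −0.045 with totals, −0.022 with limma-voom and −0.0092 with RIN (−0.11 to 0.13). The control line difference of Top2a turned to −0.058 with totals (−0.16 to 0.58), and that of Ccnb1 ran from −0.25 to 0.24. With totals the correlation of Pcna with Mki67 rose to 0.76; the other 4 correlations stayed past the threshold, at 0.78 to 0.99. The counts behind the background shares were unstable between lines: 328 genes in control muscle became 154 to 619, 514 in overloaded muscle 115 to 2153, and 8 for the difference between responses 1 to 137.

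The labels do not pair same-numbered libraries, whose deviations correlated at −0.18 to 0.59. Between HRT overload and LRT overload 5 of 6 pairs were over 0.1 and 1 was at −0.15, between other groups at most 1 of 6 was over 0.1, and at most 2 of 6 libraries matched their own number best. With the replicate number as a block 5 genes were called in each line and 0 between lines, as without it, and Pcna in HRT was at 0.15 (edgeR adjusted p = 0.0530). Depth limits Cdk1 and Ccnb1 most, with 2.05 to 23.0 counts in control libraries.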

Other observations

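Control muscle was not uniform in these genes. This was noted after the values had been seen. HRT control replicate 1 was the highest of its group for Mki67 (10.3 CPM), Top2a (3.57 CPM), Cdk1 (0.827 CPM) and Ccnb1 (0.864 CPM), and its Top2a counts were 34.7% of its Mki67 counts against 6.66% to 23.8% in the other 5. Its RIN was 8.1, within the range of 8 to 8.6 of its group, and each of these levels was still below the lowest HRT overload library. Without it the overload response in HRT was 1.97 for Mki67, 3.84 for Top2a, 4.08 for Cdk1 and 2.60 for Ccnb1 on the log2 scale.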
